A study of Rattus norvegicus with 4 samples.

Results

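The 75 genes described here encode subunits of neurotransmitter receptors, the membrane proteins by which one neuron of the retina senses the transmitter of another. They were chosen by symbol: every probe listed with 1 gene whose symbol begins with Gria, Grik, Grin, Grm, Gabr, Glra, Chrn, Chrm, Drd or Htr and goes on to a receptor subunit. This gave 78 probes of 12750 with 1 listed gene, and 75 genes of 9653. The other matches to these letters, 4 probes of 3 genes (Grina and the proteases Htra1 and Htra2), are not receptor subunits and were left out. By transmitter there were 20 genes for glutamate, 15 for GABA, 2 for glycine, 20 for acetylcholine, 4 for dopamine and 14 for serotonin.

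In the retina, photoreceptors and bipolar cells signal with glutamate. AMPA, kainate and NMDA receptors are the ion channels that answer it, while the metabotropic receptor of Grm6 inverts the photoreceptor signal in ON bipolar cells. Amacrine and horizontal cells inhibit through GABA and glycine channels, starburst amacrine cells release acetylcholine, and a sparse amacrine type releases dopamine as a signal of light. Receptors for acetylcholine come as nicotinic channels and muscarinic G protein-coupled receptors, and those for dopamine and serotonin are coupled to G proteins except for the serotonin channel of Htr3a and Htr3b.

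Pools of whole retinas from albino Lewis rats at 11 and at 20 weeks of age were each compared with pools at 5 weeks, to follow the maturing retina. The rats were kept from birth in a laboratory with day and night, and the labels name no other treatment. Each of 4 two-colour arrays held an older and a 5-week retina: 2 arrays for 11 weeks and 2 for 20 weeks, each pair with the dyes Cy5 and Cy3 exchanged. Nothing in the labels tells whether both arrays of an age shared their RNA. The spread behind every error and p-value below may therefore be technical alone, and with shared RNA there would be 1 pool per age and no test.

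Every change is on the log2 scale and sets the older retina over that of 5 weeks. Each array was centred on its median probe with 1 listed gene, so a value of 0 is the middle gene of the array. Cy5 over Cy3 is only the likely direction of the deposited ratios, and with the other one every sign and every "higher" and "lower" would turn round. Before centring, the array medians over probes with 1 listed gene were -0.045 and -0.13 for 11 weeks and 0.543 and -0.01 for 20 weeks, the Cy5 array of each age given first. These 4 medians are as deposited, before the arrays with the older retina in Cy3 were turned. Set as the older retina over 5 weeks, those of the Cy3 arrays change sign. A gene "passed" at an adjusted p under 0.05 in limma, fitted over all 9653 genes with the 2 age effects and a gene-wise dye effect, which leaves 1 residual degree of freedom. Errors, intervals and p-values of this fit measure how far the dye effect differed between the ages, with spread borrowed over all genes. They leave out the difference between the 2 arrays of an age that the dye effect takes up. At 20 weeks Gabrq had an SD of 0.80 over its arrays and Grin3a 0.05, and both had an error of 0.07. Without the dye effect limma passed 0 genes of all 9653 in each comparison, with 0 receptor genes at an unadjusted p under 0.05 at 11 weeks and 9 at 20 weeks. All 9 were higher (12%), with 0 lower, against 5.55% of all genes higher and 3.65% lower. The standard error (SE) printed beside a mean change is that of the fit with the dye effect. Unless stated, a change given without 1 array also keeps the dye effect. That effect then comes from the 2 arrays of the other age and is taken out of the array that is left. Such a change is therefore not the reading of the array left. Leaving out either array of an age moves the change by the same amount, in opposite directions. Ratios carry no level, so neither the expression of a gene nor the tissue's identity could be checked. In this whole tissue, fewer cells of a type and less RNA per cell cannot be told apart.

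The receptor genes that rose most at 20 weeks were Htr2b and Htr6, genes of serotonin receptors, and Chrm4, a muscarinic receptor gene. Their promoters are shown for that reason, from the RefSeq table of the GRCr8 assembly. Each sequence holds 250 bases before the start and 50 after it, written 5′ to 3′. Capitals mark matches, on either strand, to TAATCC, a motif of photoreceptor and bipolar cell homeodomain factors, and to GGGCGG, the GC box. Both motifs were chosen after the sequences were seen.

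Htr2b (GRCr8 chr9:94204038-94204337, minus strand): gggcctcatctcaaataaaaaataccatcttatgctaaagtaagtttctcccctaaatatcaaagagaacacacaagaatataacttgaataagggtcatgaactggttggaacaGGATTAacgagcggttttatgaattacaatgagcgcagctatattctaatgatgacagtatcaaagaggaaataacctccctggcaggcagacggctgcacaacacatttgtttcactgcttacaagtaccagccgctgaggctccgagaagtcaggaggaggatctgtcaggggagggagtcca
Htr6 (GRCr8 chr5:156595098-156595397, minus strand): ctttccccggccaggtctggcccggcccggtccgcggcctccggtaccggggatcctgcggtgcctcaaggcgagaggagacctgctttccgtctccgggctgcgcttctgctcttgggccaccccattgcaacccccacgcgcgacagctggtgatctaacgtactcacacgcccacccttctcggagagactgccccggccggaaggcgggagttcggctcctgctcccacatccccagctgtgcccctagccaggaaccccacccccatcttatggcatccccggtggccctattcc
Chrm4 (GRCr8 chr3:98348830-98349129, plus strand): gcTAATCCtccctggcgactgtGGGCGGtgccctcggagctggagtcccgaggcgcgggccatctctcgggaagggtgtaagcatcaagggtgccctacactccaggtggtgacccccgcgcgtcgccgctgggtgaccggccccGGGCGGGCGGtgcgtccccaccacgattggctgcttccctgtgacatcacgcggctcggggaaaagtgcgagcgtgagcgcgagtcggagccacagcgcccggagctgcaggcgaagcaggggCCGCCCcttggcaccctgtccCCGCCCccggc

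The Htr2b promoter held 1 match to TAATCC and 0 to the GC box, and 43.3% of its bases were G or C. The Chrm4 promoter held 1 match to TAATCC and 5 to the GC box, 2 of them overlapping, with 72% G or C. That of Htr6 held neither motif, with 68% G or C. The median over all 33469 promoters of the table was 51.7%. TAATCC was found in 7 of the 57 receptor promoters in the table (12.3%), against 7.17% of all promoters, and in 4 of the 19 whose genes passed as higher at 20 weeks (21.1%). Htr2b and Chrm4 are among these 4, and the motif was chosen after their promoters were seen, so the shares of TAATCC test nothing. The GC box was found in 27 of the 57 (47.4%), against 33.1% of all promoters, and in 7 of the same 19 (36.8%). A match describes the letters and shows no binding.

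At 20 weeks, 24 of the 75 receptor genes passed as higher (32%) and 5 as lower (6.67%), against 17.8% higher and 13.9% lower among all genes. Their median change was 0.10, against 0.01 for all genes. At 11 weeks 3 passed as higher (4%), Htr6, Htr7 and Chrm4, and 0 as lower, where limma passed 2.61% of all genes as higher and 6.34% as lower, and the median change was 0.07 against 0.02. The receptor genes thus lay to the higher side of the array at both ages, by amounts that are small beside the span of single members, -0.64 to 0.80 at 20 weeks. Before adjustment, limma gave 16 receptor genes a p under 0.05 as higher at 11 weeks (21.3%) and 1 as lower (1.33%), against 11.5% and 15.4% of all genes. With the ratios as deposited, the median gene of the array moved to 0.29 at 20 weeks, and 1 receptor gene, Htr2b, passed as higher and 0 as lower. Among all genes 132 then passed as higher and 1 as lower.

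Another set of genes moved the same way. Of 43 genes of families that belong to other tissues (taste, olfactory and vomeronasal receptors, placental prolactins, seminal vesicle proteins, pancreatic enzymes and caseins, picked by symbol after results were known), 18 passed as higher at 20 weeks (41.9%) and 2 as lower (4.65%), with a median of 0.14. At 11 weeks their median was 0.09, and 2 passed, both as higher. Markers of other cells moved too. Rod markers, 6 measured of 12 listed, had medians of -0.38 at 11 weeks, with 4 passed as lower, and -0.30 at 20 weeks, with 3. Lens markers, 8 measured of 11 listed, had medians of -0.38 with 6 passed as lower and -0.23 with 4, and 0 of either list passed as higher. Cone markers, 6 measured of 8 listed, had a median of 0.04 at 11 weeks, with 1 passed in each direction. At 20 weeks it was 0.15, with 3 passed as higher and 0 as lower. Pigment epithelium markers, 5 measured of 10 listed, had a 20-week median of 0.04, with 2 passed as higher and 1 as lower. Among all genes 2.61% passed as higher and 6.34% as lower at 11 weeks, and 17.8% and 13.9% at 20 weeks. The part of these markers in the receptor counts was not tested. Whether signal near background bears on the receptor counts was not tested, since no intensities were used here.

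**Figure D1:**
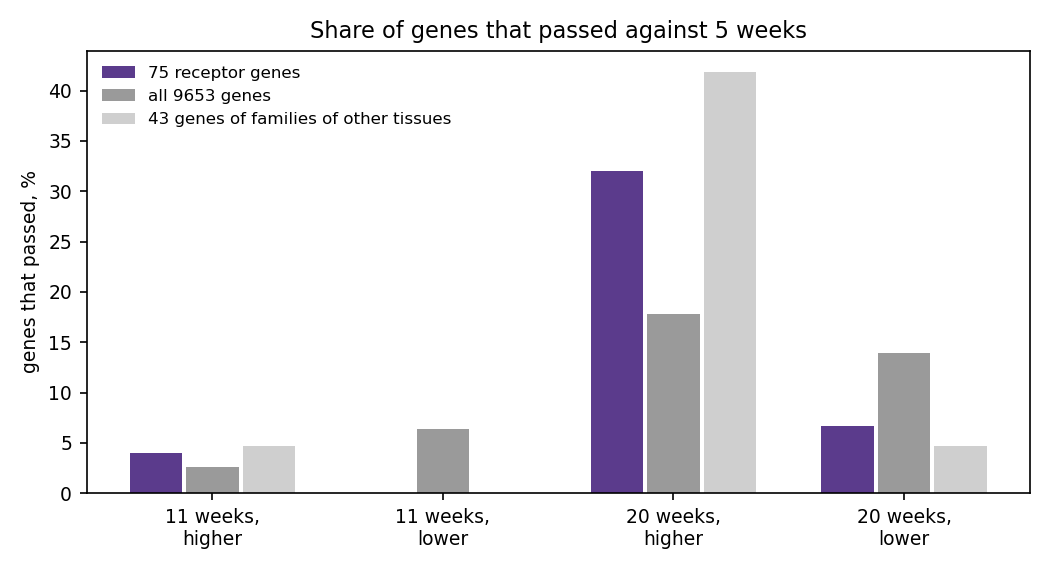
Bars give the percentage of genes that passed against 5 weeks, by age and direction, for the 75 receptor genes, all 9653 genes and the 43 genes of families of other tissues. At 20 weeks 32% of receptor genes were higher and 6.67% lower, against 17.8% and 13.9% of all genes.

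The direction on single arrays showed the same lean. At 11 weeks 25 receptor genes lay above the middle gene on both arrays (33.3%) and 6 below (8%), against 20.5% and 20.2% of all genes. At 20 weeks 29 lay above on both (38.7%) and 7 below (9.33%), against 27.1% and 26.7%. On all 4 arrays 17 were above (22.7%) and 1, Gabrr3, below (1.33%), against 11.5% and 12.1% of all genes. The 17 were Gria3, Grin2c, Grin2d, Grin3a, Gabrb1, Glra1, Chrna4, Chrna5, Chrna9, Chrne, Chrm4, Drd3, Htr2b, Htr3a, Htr5b, Htr6 and Htr7. Gria3 is among them by the mean of its 2 probes, which were at 0.38 and -0.17 on the 11-week array in Cy5. At both ages 3 passed as higher (1.86% of all genes did) and 0 as lower (3.06% of all genes did).

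Much of the pattern on single arrays followed the dye, in receptor genes at shares near those of all genes. The sign followed the dye on all 4 arrays in 28 receptor genes (37.3%), against 33.1% of all genes. Gabrq, the theta subunit of the GABA-A channel, was the clearest case, at 0.75 and 0.74 with the older retina in Cy5 and -0.53 and -0.39 with it in Cy3 (11 weeks, then 20 weeks). Its mean changes of 0.11 and 0.17 did not pass. Htr1b, a serotonin receptor gene, ran the other way, at -0.45 and -0.41 in Cy5 and 0.61 and 0.59 in Cy3. The dye effect was larger than the mean change at 20 weeks in 39 of the 75 receptor genes (52%), against 46.7% of all genes. Of the 24 receptor genes that passed as higher at 20 weeks, 18 were above 0 on both arrays of that age, and the other 6 were not. Among all genes 1715 passed as higher at 20 weeks, and of these 1389 were above 0 on both arrays and 326 were not. All 24 receptor calls rest on the fitted dye effect, since 0 passed without it.

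**Figure D2:**
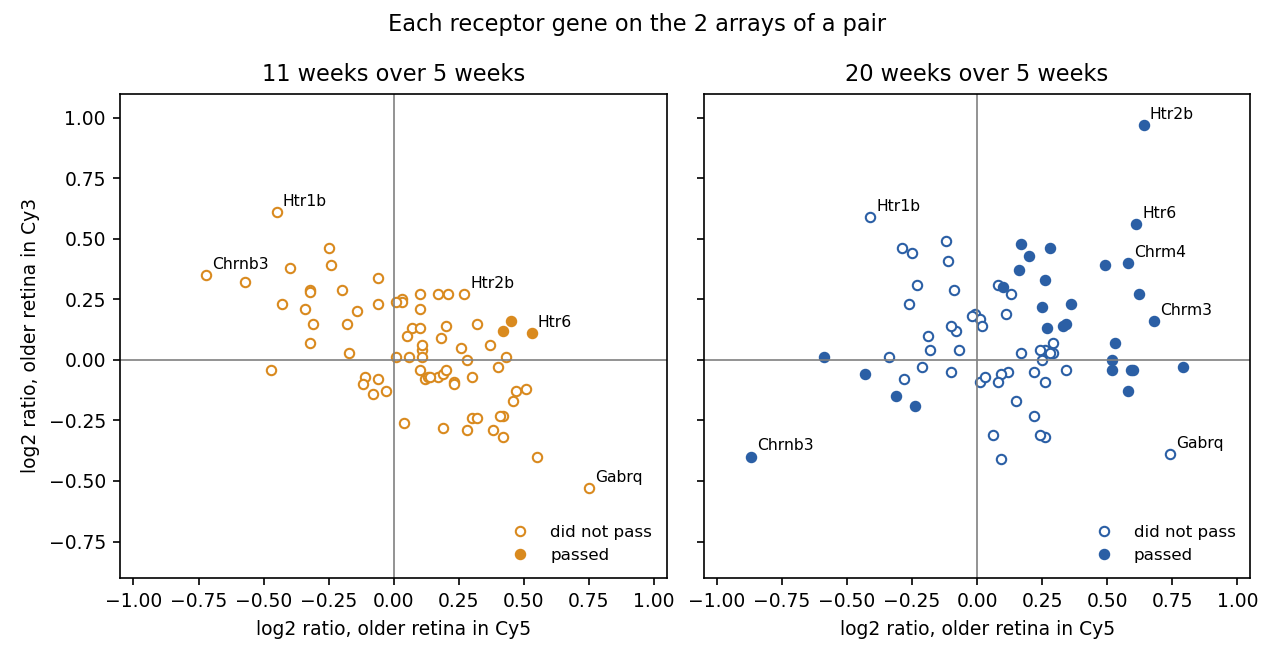
Each point is a receptor gene, by its log2 change against 5 weeks with the older retina labelled in Cy5 (horizontal axis) and in Cy3 (vertical axis), for 11 weeks (left) and 20 weeks (right); filled points passed. Points along the falling diagonal, such as Gabrq and Htr1b, changed sign with the dye, while Htr2b at 20 weeks lay at 0.64 and 0.97.

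By transmitter, the serotonin, dopamine and acetylcholine receptor genes had the highest medians at 20 weeks, at 0.18, 0.19 and 0.17, followed by glutamate at 0.10, glycine at 0.05 and GABA at 0.02. At 11 weeks the medians were 0.08, 0.08, 0.11, 0.04, 0.03 and 0.03 in the same order. The order is a description of few genes. On the 20-week array with the older retina in Cy5 the acetylcholine median was 0.27, and on that with it in Cy3 it was 0.00, while the serotonin medians were 0.20 and 0.18. The glutamate medians on those arrays were 0.08 and 0.17, and the GABA medians 0.15 and -0.05. The serotonin group thus lay above the middle gene on both dyes and the acetylcholine group on Cy5 alone. As ligand-gated channels, 13 of 48 genes passed as higher (27.1%) and 4 as lower (8.33%) at 20 weeks. Among the G protein-coupled receptors these counts were 11 of 27 (40.7%) and 1 (3.7%). The shares of all genes were 17.8% higher and 13.9% lower. The median change was 0.11 for the channels and 0.10 for the G protein-coupled receptors.

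**Figure D3:**
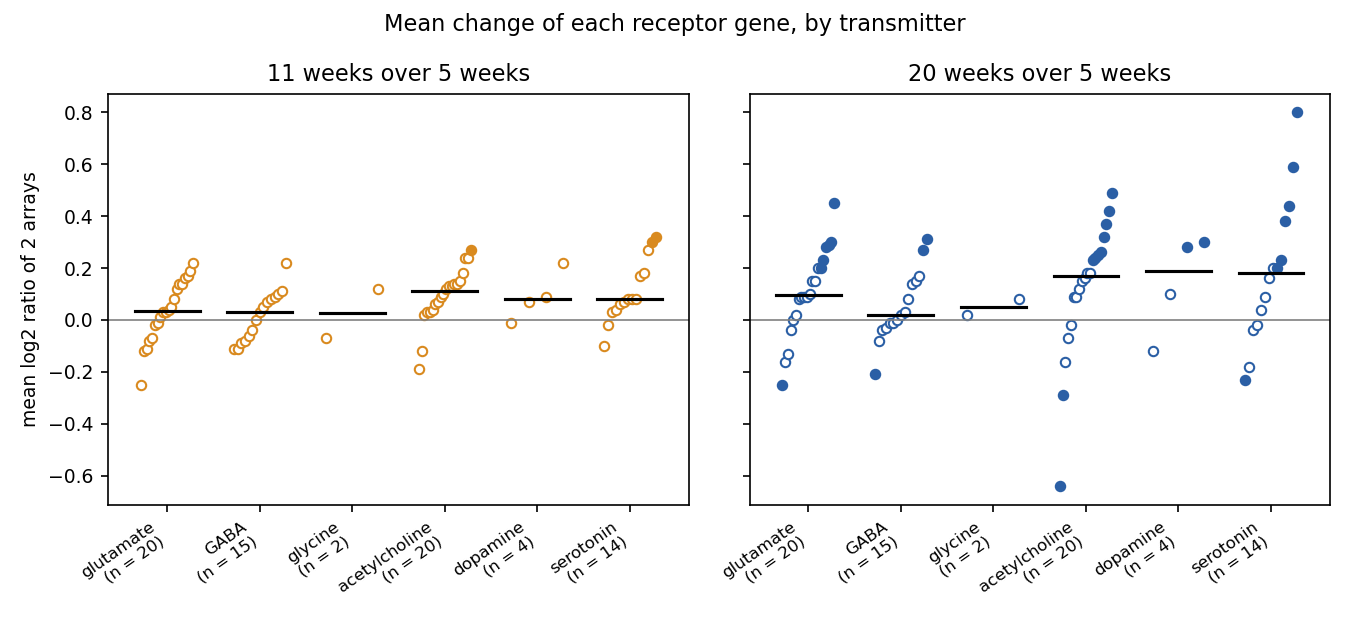
Points are each receptor gene's mean log2 change over 2 arrays, at 11 weeks (left) and 20 weeks (right) against 5 weeks, grouped by transmitter; filled points passed and bars are group medians. At 20 weeks the serotonin median was 0.18 and the GABA median 0.02, and Htr2b (0.80) and Chrnb3 (-0.64) were the extremes.

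Of the 14 serotonin receptor genes, 6 passed as higher at 20 weeks (42.9%) and 1 as lower (7.14%), against 17.8% and 13.9% of all genes. At 11 weeks 2 passed as higher (14.3%), against 2.61% of all genes. Htr2b, a receptor that raises calcium and is best known from heart valve and gut, stood at 0.64 with the 20-week retina in Cy5 and 0.97 with it in Cy3, and at 0.27 on both 11-week arrays. All 4 values were above the middle gene, and the 20-week values did not overlap those at 11 weeks. Its change at 20 weeks was 0.80 ± 0.24 (SD, n = 2), a 1.75-fold ratio, with a 95% interval of 0.64 to 0.97 and an adjusted p of 0.000111 in limma. At 11 weeks it missed the threshold, with an adjusted p of 0.0529. It also had the smallest unadjusted p of the receptor genes without a dye effect, 0.00181 at 20 weeks.

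Htr6 and Htr7, receptors that raise cyclic AMP, passed at both ages. Htr6 was at 0.61 and 0.56 on the 20-week arrays in Cy5 and Cy3, and at 0.53 and 0.11 on the 11-week arrays. Its means were 0.32 ± 0.30 at 11 weeks and 0.59 ± 0.04 at 20 weeks (SD, n = 2), with adjusted p values of 0.0338 and 0.000685 in limma. The 11-week change was 0.13 without the array with that retina in Cy5 and 0.50 without the other. Htr7 was at 0.45 and 0.16 at 11 weeks and at 0.49 and 0.39 at 20 weeks, with means of 0.30 ± 0.20 and 0.44 ± 0.08 (SD, n = 2) and adjusted p values of 0.0267 and 0.00166. For both genes each of the 4 arrays lay above 0. With arrays centred on all probes neither passed at 11 weeks, with adjusted p values in limma of 0.0687 for Htr6 and 0.0535 for Htr7, and over genes with 1 probe that of Htr6 was 0.0514.

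Htr2a, which like Htr2b raises calcium, passed at 20 weeks with a mean of 0.38 but depended on dye: it was at 0.79 in Cy5 and -0.03 in Cy3. Htr5b, a receptor with a working gene in rodents, rose by 0.23, at 0.33 and 0.14. Htr3b, a subunit of the serotonin channel, rose by 0.20, at 0.27 and 0.13, and Htr3a, its partner, was at 0.16 and did not pass. Htr5a, an inhibitory receptor, passed as lower at -0.23, with -0.31 in Cy5 and -0.15 in Cy3. Without the 20-week array in Cy3 it was at -0.06, and without that in Cy5 at -0.40. In the ratios as deposited it turned to 0.05, and centred on all probes its adjusted p was 0.0549. Htr1a, Htr1b, Htr1d, Htr1f, Htr2c and Htr4 did not pass at either age, with 20-week means between -0.18 (Htr1d) and 0.20 (Htr2c).

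Of the 20 acetylcholine receptor genes, 8 passed as higher at 20 weeks (40%) and 2 as lower (10%), against 17.8% and 13.9% of all genes. At 11 weeks 1 passed as higher (5%), against 2.61% of all genes. All 5 muscarinic genes had means above 0 at both ages and 3 passed at 20 weeks. The group lay above the middle gene on Cy5 alone. Its medians with the older retina in Cy5 and in Cy3 were 0.58 and -0.04 at 20 weeks, and 0.30 and -0.08 at 11 weeks. Chrm4, which inhibits adenylyl cyclase, was at 0.42 and 0.12 at 11 weeks and at 0.58 and 0.40 at 20 weeks, above 0 on every array. Its means were 0.27 ± 0.21 and 0.49 ± 0.13 (SD, n = 2), with adjusted p values of 0.0337 and 0.000794 in limma. The 11-week call ended with arrays centred on all probes (adjusted p 0.0624) and over genes with 1 probe (0.0514). Chrm3, which raises calcium in glands and smooth muscle, was at 0.68 and 0.16 at 20 weeks, and at 0.30 and -0.24 at 11 weeks. Its 20-week change of 0.42 passed with an adjusted p of 0.00169. Chrm5 passed at 0.23 but was at 0.58 in Cy5 and -0.13 in Cy3, and Chrm1, the lowest of the group, was at 0.02 and 0.09 at 11 and 20 weeks.

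Among the 10 neuronal nicotinic genes the largest change was on the lower side. Chrnb3 and Chrna6, whose proteins assemble together in nicotinic channels of ganglion cells and dopamine neurons, passed as lower at 20 weeks. Chrnb3 was at -0.87 in Cy5 and -0.40 in Cy3, with a mean of -0.64 ± 0.33 (SD, n = 2) and an adjusted p of 0.00128 in limma. At 11 weeks it was at -0.72 and 0.35, opposite in sign between the dyes. Chrna6 was at -0.59 and 0.01 at 20 weeks and at -0.57 and 0.32 at 11 weeks, so its passed change of -0.29 shows on the Cy5 array. Without the 20-week array in Cy3, Chrnb3 was at -0.34 and Chrna6 at -0.15, and without that in Cy5 they were at -0.94 and -0.43. In the GRCr8 annotation these genes are direct neighbours on chromosome 16, with 0 coding genes between them. The neighbours Chrna5, Chrna3 and Chrnb4 on chromosome 8 were at 0.18, -0.02 and 0.16 at 20 weeks and did not pass.

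Chrna4, the main alpha subunit of brain nicotinic channels, rose by 0.37 at 20 weeks, at 0.28 and 0.46, while Chrnb2, its usual partner, was at -0.07 and did not pass. Chrna7, a subunit that forms channels on its own, rose by 0.26, at 0.52 in Cy5 and 0.00 in Cy3, with its 2 probes at 0.22 and 0.30. Chrna9, known from cochlear hair cells, rose by 0.25, at 0.34 and 0.15. Chrna5 had the highest 11-week mean of the group, 0.24, with an adjusted p of 0.0516. Ganglion cell markers, 7 measured of 12 listed, had a median of -0.31 at 20 weeks (means from -0.58 to 0.08). Of these markers 4 passed as lower (57.1%) and 0 as higher, against 13.9% and 17.8% of all genes. Their part in the values of Chrnb3 and Chrna6 was not tested.

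The 5 subunits of the muscle-type channel had a median of 0.12 at 20 weeks. Chrne, the subunit of the adult muscle endplate, was at 0.17 and 0.48 at 20 weeks and at 0.21 and 0.27 at 11 weeks. Its 20-week change of 0.32 passed, with an adjusted p of 0.00834 in limma. The change was 0.20 without the 20-week array in Cy3 and 0.45 without that in Cy5. Chrna1 passed at 0.24, with 0.52 in Cy5 and -0.04 in Cy3. Chrng, the fetal subunit, was at -0.16 and did not pass. Skeletal muscle markers, 11 measured of 20 listed, had a median of 0.32 at 20 weeks (means from 0.01 to 0.47). Of these markers 7 passed, each as higher (63.6%), against 17.8% of all genes. Their part in the values of Chrne and Chrna1 was not tested. At 11 weeks the marker median was 0.06, with 1 passed as higher.

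Of the 20 glutamate receptor genes, 6 passed as higher at 20 weeks (30%) and 1 as lower (5%), against 17.8% and 13.9% of all genes. At 11 weeks 0 passed in either direction. The NMDA receptor genes held 3 of the 6. Grin2c, a subunit best known from cerebellar granule cells, was at 0.62 and 0.27 at 20 weeks and at 0.43 and 0.01 at 11 weeks. Its change at 20 weeks was 0.45 ± 0.25 (SD, n = 2), and limma's adjusted p was 0.00123. Grin3a, a subunit that dampens NMDA currents, was at 0.26 and 0.33 at 20 weeks and at 0.01 on both 11-week arrays, and passed at 0.29. Grin2d, which gives slowly closing channels, passed at 0.20. Grin1, the subunit that every NMDA channel needs, passed as lower at -0.25, with -0.43 in Cy5 and -0.06 in Cy3. It was at -0.13 without the 20-week array in Cy3 and -0.37 without that in Cy5. In the ratios as deposited it turned to 0.03. Its 11-week values were -0.32 and 0.29. Grin2a and Grin3b did not pass, at 0.09 and 0.15.

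Among AMPA receptor genes, Gria3 passed at 20 weeks at 0.23, with 0.25 and 0.22 on the arrays, and its 2 probes were at 0.30 and 0.17. At 11 weeks the same probes were apart, with means of 0.27 and -0.04. Gria1 was at 0.20 with an adjusted p of 0.0505, just above the threshold. Gria4 had the lowest 11-week mean of all receptor genes, -0.25, with values of -0.47 and -0.04 and an adjusted p of 0.0529, and was at 0.09 at 20 weeks. Gria2, the subunit that blocks calcium entry, followed the dye, at 0.38 and -0.29 at 11 weeks and at 0.24 and -0.31 at 20 weeks. Of the kainate receptor genes, Grik4 passed at 0.28 with 0.59 in Cy5 and -0.04 in Cy3, and Grik5 was the lowest at -0.13. Grik1, used by OFF bipolar cells, was at -0.07 and 0.09 at 11 and 20 weeks.

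The metabotropic glutamate receptor genes had the lowest median of the glutamate groups at 20 weeks, 0.05. Grm6, the receptor of ON bipolar cells, was at -0.03 and -0.13 at 11 weeks and at -0.02 and 0.18 at 20 weeks. Its means of -0.08 and 0.08 had 95% intervals of -0.24 to 0.08 and -0.08 to 0.24, and both intervals include 0. Grm4, a presynaptic receptor, passed at 0.30 at 20 weeks with 0.53 and 0.07. It was at 0.15 without the 20-week array in Cy3 and 0.44 without that in Cy5. Grm7, the presynaptic receptor with the lowest 20-week mean of the group, was at -0.16 and did not pass, with its 2 probes at -0.26 and -0.07. Grm5 had the highest 11-week mean of the metabotropic genes, 0.17, and was at 0.00 at 20 weeks. Bipolar cell markers, 6 measured of 11 listed, had a median of -0.19 at 20 weeks. Of these markers 3 passed as lower (50%) and 0 as higher, against 13.9% and 17.8% of all genes.

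Inhibitory receptor genes lay nearest to the middle gene. Of 15 GABA receptor genes, 2 passed as higher (13.3%) and 1 as lower (6.67%) at 20 weeks, against 17.8% and 13.9% of all genes. At 11 weeks 0 passed in either direction. Gabra6, a cerebellar granule cell subunit, passed at 0.31, with 0.20 and 0.43, and was at 0.15 without the 20-week array in Cy5 and 0.47 without that in Cy3. Gabrp, a subunit known mainly outside the nervous system, passed at 0.27, with 0.16 and 0.37. It was at 0.15 without the 20-week array in Cy5 and 0.39 without that in Cy3. Both had opposite signs on the 11-week arrays, at -0.34 and 0.21 for Gabra6 and -0.31 and 0.15 for Gabrp. Gabrb1 had the highest 11-week mean of the GABA genes, 0.22, with values of 0.37 and 0.06 and an adjusted p of 0.0705. The neighbours Gabrb1, Gabra4, Gabra2 and Gabrg1 on chromosome 14 were at 0.14, 0.15, -0.01 and 0.00 at 20 weeks, and none passed.

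The rho subunits form the slow GABA channel of bipolar cell terminals. Gabrr3 was the receptor gene below 0 on all 4 arrays, at -0.11 and -0.07 at 11 weeks and at -0.24 and -0.19 at 20 weeks, and at 20 weeks it passed as lower, at -0.21 ± 0.04 (SD, n = 2). Its adjusted p in limma was 0.0332, and in the ratios as deposited it turned to 0.06. Gabrr1 was at -0.11 and -0.04 at 11 and 20 weeks, with a 20-week interval of -0.19 to 0.11. Gabrr2, its direct neighbour on chromosome 5, was at -0.04 and -0.01, and its sign followed the dye. The glycine channel genes did not pass: Glra1 was at 0.12 and 0.08 and Glra3 at -0.07 and 0.02 at 11 and 20 weeks.

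Of 4 dopamine receptor genes, 2 passed as higher at 20 weeks (50%) and 0 as lower, against 17.8% and 13.9% of all genes. Drd3 was above 0 on every array, at 0.17 and 0.27 at 11 weeks and at 0.36 and 0.23 at 20 weeks, and passed at 0.30 with an adjusted p of 0.0114 in limma. It was at 0.18 without the 20-week array in Cy5 and 0.41 without that in Cy3. Drd4, the dopamine receptor of rodent photoreceptors, passed at 0.28 but followed the dye, at 0.60 in Cy5 and -0.04 in Cy3, after 0.55 and -0.40 at 11 weeks. Without the 20-week array in Cy5 it was at 0.43, and without that in Cy3 at 0.13. Drd2, the receptor that dopamine cells use to sense their own output, was at -0.12 with an interval of -0.27 to 0.03, and Drd5 was at 0.10.

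**Figure D4:**
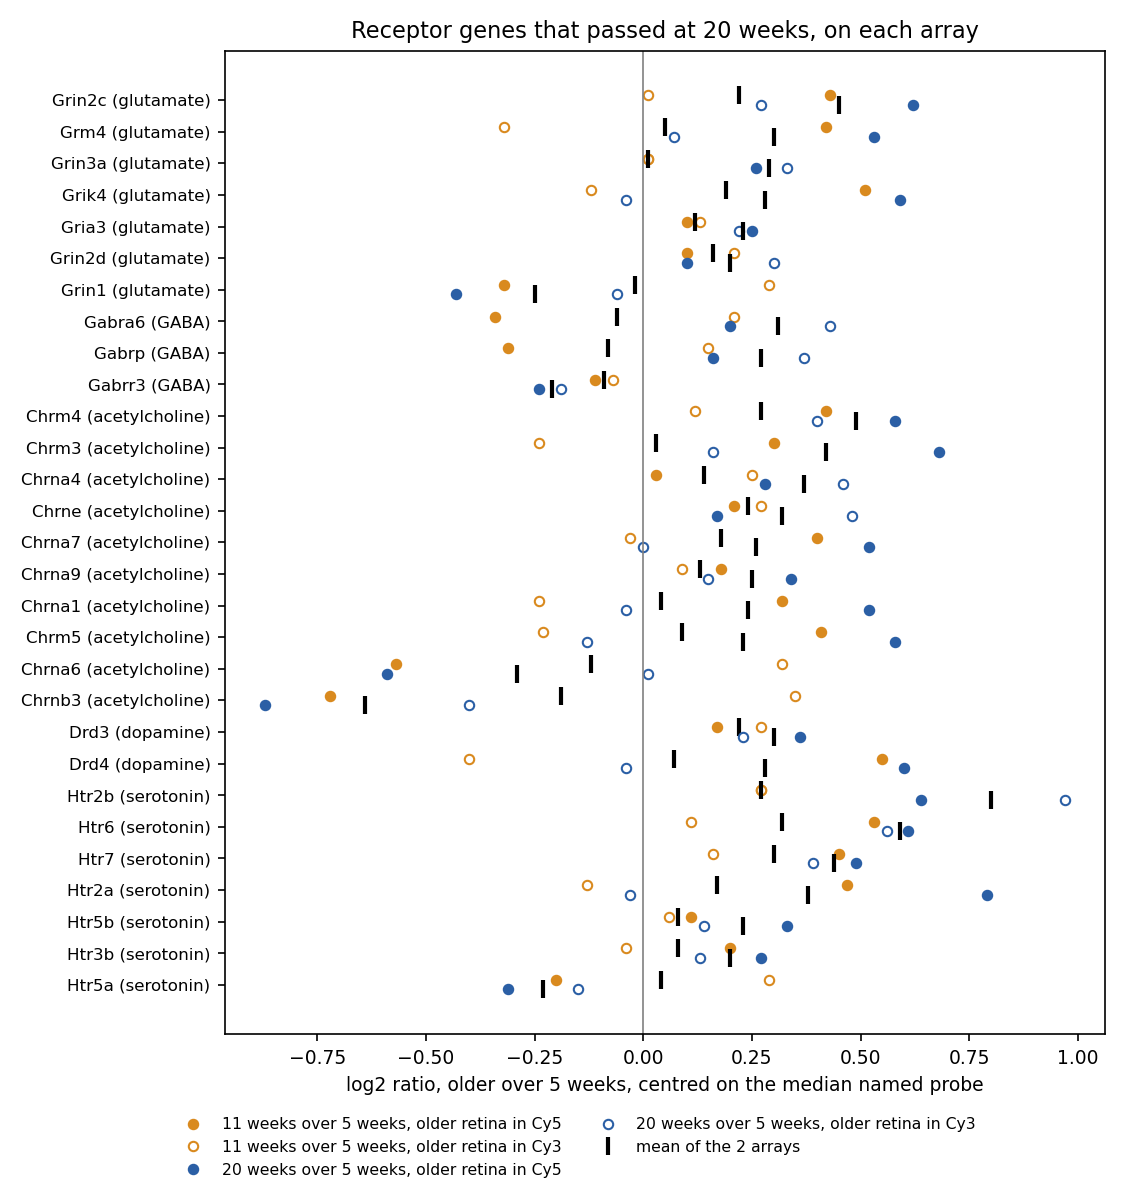
Points are log2 changes against 5 weeks on each of the 4 arrays (filled, older retina in Cy5; open, in Cy3), with a bar at the mean of each pair, for the 29 receptor genes that passed at 20 weeks. Htr2b, Htr6, Htr7 and Chrm4 lie above 0 on every array, whereas Htr2a, Drd4, Grik4, Chrna1 and Chrm5 lie on both sides of 0.

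The 20-week and 11-week retinas met only through the 5-week retina and were on separate arrays, so array and age cannot be told apart in their difference. Between these ages 2 receptor genes passed as higher at 20 weeks and 0 as lower, against 3.55% and 1.18% of all genes. Htr2b was higher at 20 weeks than at 11 by 0.54 (SE 0.11), with an adjusted p of 0.0183 in limma, and its arrays of both ages did not overlap. Chrm3 was higher by 0.39 (SE 0.09), with an adjusted p of 0.0434 in limma. With the older retina in Cy5 it was at 0.68 at 20 weeks and 0.30 at 11 weeks, and in Cy3 at 0.16 and -0.24. Its values of the 2 ages overlapped only between unlike dyes, and its fitted dye effect was 0.27. Both calls ended with arrays centred on all probes, with adjusted p values of 0.0535 for Htr2b and 0.0793 for Chrm3, in the ratios as deposited and without the dye effect, and that of Chrm3 also over genes with 1 probe (0.0697). Chrnb3 differed by -0.45 with an adjusted p of 0.0883. Before adjustment, 12 receptor genes had a p under 0.05 as higher (16%) and 6 as lower (8%), near the 12.2% and 7.95% of all genes.

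The genes that make, carry, clear and anchor these transmitters are given by list, with no test of a list against other genes. Of 27 glutamate partners measured, 2 passed as higher (7.41%) and 9 as lower (33.3%) at 20 weeks, against 17.8% and 13.9% of all genes. Their 20-week median was -0.07. At 11 weeks 0 passed as higher and 3 as lower (11.1%), against 2.61% and 6.34% of all genes, with a median of 0.03. Cacng4, an AMPA receptor auxiliary subunit, was at -0.48 and -0.86 at 20 weeks and at 0.04 and -0.19 at 11 weeks, with a 20-week adjusted p of 0.000155 in limma. Slc1a3, the glutamate transporter of Müller cells, passed as lower at both ages, at -0.44 and -0.32. At 11 weeks it was at -0.28 without the array in Cy5 and -0.59 without that in Cy3. At 20 weeks it was at -0.16 without the array in Cy3 and -0.47 without that in Cy5. Homer3, a scaffold of metabotropic receptors, also passed as lower at 20 weeks, at -0.33, and the postsynaptic scaffolds Shank2 and Shank3 as higher, at 0.38 and 0.30.

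Of 18 GABA and glycine partners, 1 passed as higher (5.56%) and 4 as lower (22.2%) at 20 weeks, against 17.8% and 13.9% of all genes. Of these 4, 2 were below 0 on both arrays, and the list median was -0.09. At 11 weeks 0 passed as higher and 2 as lower (11.1%), against 2.61% and 6.34% of all genes, with a median of -0.10. Abat and Aldh5a1 encode successive enzymes of GABA breakdown and went apart. Abat was at -0.57 and -0.63 at 20 weeks, with a mean of -0.60, and Aldh5a1 at 1.13 and 0.64, with a mean of 0.88 (adjusted p 0.000484 and 5.99e-05 in limma). Aldh5a1 was at -0.08 and -0.30 at 11 weeks. Of 8 ON bipolar cascade genes measured, Pcp2 alone passed at 20 weeks, at -0.38, and 0 at 11 weeks.

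Of 9 acetylcholine partners, 2 passed as higher (22.2%) and 1 as lower (11.1%) at 20 weeks, against 17.8% and 13.9% of all genes. Their median was 0.04, and 0 passed at 11 weeks. Musk, the kinase that clusters nicotinic receptors at the muscle endplate, was at 0.47. It was at 0.29 without the 20-week array in Cy5 and 0.64 without that in Cy3. Ache, which breaks acetylcholine down, was at 0.23, and Lynx1, a membrane protein that dampens nicotinic channels, at -0.34. Of 17 dopamine and serotonin partners, 1 passed as higher (5.88%) and 4 as lower (23.5%) at 20 weeks, with a median of 0.12, and 0 at 11 weeks. Those that passed as lower were Ppp1r1b, Qdpr, Gnal and Caly, at -0.28, -0.34, -0.34 and -0.24. Without the 20-week array in Cy3, Ppp1r1b was at -0.08 and Gnal at -0.07, and without that in Cy5 they were at -0.49 and -0.61. Amacrine and horizontal cell markers, 10 measured of 17 listed, had a median of -0.06 at 20 weeks. Of these markers 2 passed as lower (20%) and 0 as higher, against 13.9% and 17.8% of all genes.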

How the data were processed

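Per the labels' protocols, RNA of pooled whole retinas was extracted with an RNeasy kit, amplified and labelled with both dyes. The authors deposited log2 ratios, judged from a ceiling at the log2 of 100000 in their values. The scale is thus known, whereas centring, direction and scanner steps are unstated here. Titles that put the Cy5-labelled age first gave the direction, Cy5 over Cy3. Samples were grouped by the labelled age of each channel.

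Probes were named from the platform's gene table, and all 75 receptor genes matched the GRCr8 gene table with 0 changed symbols. Of 22575 probes, 9820 had no gene and 5 had several, and these were left out. Ceiling values were set to missing, arrays were centred on the median probe with 1 gene, and swapped arrays were turned. A gene's value is the mean of its probes. limma 3.58.1 (R 4.3.3; lmFit, eBayes, two-sided) fitted both ages and a dye effect over the 4 arrays, with 1 residual and 8.83 prior degrees of freedom, and Benjamini-Hochberg adjustment over all genes. The procedure was tested on simulated data. Precision is limited by there being 4 arrays. Promoters were read from RefSeq for GRCr8.

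The genes, lists and tests were chosen with earlier results of these data known. Genes named are the 10 largest changes of one direction on both arrays at each age, the extremes of each receptor group, genes with known retinal roles and genes past the 20 against 11 week test. Others were named after their values were seen. Alternatives were the fit without a dye effect, other centrings, probe handling, and each array left out.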

Additional observations from a re-analysis of the deposited data

Results flagged for a closer look

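Htr2b and Chrm3 changed differently at the 2 ages, by the test of the difference itself: 0.54 for Htr2b and 0.39 for Chrm3 (change at 20 weeks minus change at 11 weeks, log2). Neither difference passed with arrays centred on all probes (adjusted p in limma 0.0535 and 0.0793), in the ratios as deposited, or without the dye effect. Gabrg3 and Grik1 lay on opposite sides of 0 at the 2 ages on every array, with differences of -0.11 for Gabrg3 and 0.16 for Grik1; their arrays were at -0.10 and -0.05 at 20 weeks and 0.06 and 0.01 at 11 weeks for Gabrg3, and at 0.01 and 0.17 at 20 weeks and -0.06 and -0.08 at 11 weeks for Grik1. In limma these differences did not pass, with adjusted p values of 0.556 and 0.388.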

How the results depend on the processing

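Without a dye effect, 0 receptor genes passed in each comparison and direction, in place of 3 higher at 11 weeks, 24 higher and 5 lower at 20 weeks, and 2 higher at 20 against 11 weeks; with 1 of the 4 arrays left out as well, the counts were again 0 to 0. With the dye effect and centring, 82.8% of the receptor calls at 20 weeks were higher, and 56.1% of the calls among all genes. As deposited, the counts were 0 higher at 11 weeks, 1 higher and 0 lower at 20 weeks and 0 at 20 against 11 weeks. Among all genes 132 were then higher and 1 lower at 20 weeks (99.2% of calls higher). The 20-week medians were then 0.38 for all receptor genes, 0.37 for glutamate, 0.29 for GABA, 0.32 for glycine, 0.45 for acetylcholine, 0.47 for dopamine and 0.45 for serotonin, and the 11-week medians 0.08 for glutamate and 0.12 for serotonin. Gabrr3, Grin1 and Htr5a turned to 0.06, 0.03 and 0.05 at 20 weeks. Centring on all probes gave 0 higher at 11 weeks, 0 at 20 against 11 weeks and a 20-week serotonin median of 0.17, with 22 higher and 4 lower at 20 weeks. Fitting each probe gave 5 higher at 11 weeks and 1 at 20 against 11 weeks, and genes with 1 probe gave 1 and 1. The cause of these moves was not tested. The median of probes and the kept ceiling values changed no count.

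With each array left out in turn and the dye effect kept, no residual degree of freedom is left for a test, and the medians ranged at 11 and 20 weeks from 0.06 to 0.07 and 0.1 to 0.14 (all receptor genes), 0 to 0.08 and 0.08 to 0.16 (glutamate), 0.01 to 0.06 and -0.03 to 0.06 (GABA), 0.01 to 0.05 and 0.03 to 0.07 (glycine), 0.08 to 0.12 and 0.15 to 0.21 (acetylcholine), 0.05 to 0.12 and 0.09 to 0.19 (dopamine) and 0.08 to 0.13 and 0.13 to 0.21 (serotonin). Of the receptor genes that passed, 1 at 11 weeks and 10 at 20 weeks moved by over 1.5 times. Without the 20-week array in Cy5 and without a dye effect, Chrna1, Drd4 and Grik4 were each at -0.04, Chrna6 at 0.01 and Htr2a at -0.03. Each ratio sets the older retina against the younger one on the same array, so the comparisons with the younger retina were paired within arrays. The labels give no replicate numbers, so 11-week arrays were not paired with 20-week arrays by replicate. Without intensities, signal over background is unknown, which limits every weakly expressed gene.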
